A study of Condylura cristata and Mus musculus with 12 samples.

Results

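The comparison described here is that of mouse sensory ganglia, taken as 2 libraries labelled trigeminal ganglion (TG 1 and TG 2) against 2 labelled dorsal root ganglion (DRG 1 and DRG 2). These 4 libraries were all those with a column in the mouse count table, out of 6 mouse samples and 12 samples in the series, which also holds 6 libraries of the star-nosed mole. All 4 came from adult female C57BL/6 mice with no treatment, and each came from 1 individual. The spread within a label was thus that between 2 animals together with any difference of dissection and library. Of 26125 genes in the table, 21448 had at least 10 counts in at least 2 libraries and were tested, whatever their change. Groups are named throughout by the label of the library, because the levels of Hox, myelin, muscle and other marker genes were used to check those labels. Several of these markers went against the labels, as given below, and every direction given here would turn if the labels of both groups were exchanged.

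Trigeminal and dorsal root ganglia hold the cell bodies of the neurons that carry touch, pain, itch, temperature and body position, together with satellite glia and the Schwann cells that myelinate their axons. The trigeminal ganglion serves the face and lies inside the skull, beside the pituitary, with its root entering the brainstem. Dorsal root ganglia serve the rest of the body and lie along the spinal cord beneath the muscles of the back. Hox genes, which encode homeodomain factors, are expressed in nested domains along the hindbrain and trunk and keep a record of position along the body, whereas the trigeminal ganglion forms ahead of most of these domains. Central axons are myelinated by oligodendrocytes, whose proteins differ in part from those of Schwann cells.

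The libraries held between 90548941 counts (DRG 2) and 147076817 counts (TG 2). Levels are given as CPM, read counts scaled to a common library total with TMM factors, and a log2 fold change is that of the TG label over the DRG label, given with its standard error. With edgeR's quasi-likelihood test and a Benjamini-Hochberg adjusted p under 0.05, 240 genes (1.12% of those tested) were higher under the TG label and 258 (1.2%) under the DRG label. Their median change was 1.27 and 1.29 on the log2 scale. A gene did not overlap between the labels, with both TG values above both DRG values, in 24.3% of genes, and the reverse held in 23.8%. Both libraries labelled TG resembled each other more than did those labelled DRG. The rank correlation was 0.9933 between TG 1 and TG 2 and 0.9804 between DRG 1 and DRG 2, and the SD of the log2 ratio over genes at 5 CPM or more was 0.211 and 0.512. Between labels, DRG 1 had a correlation of 0.9808 (SD 0.457) with TG 1 and 0.9851 (SD 0.427) with TG 2. By both measures DRG 1 was thus nearer to the TG libraries than to DRG 2. DRG 2 had a correlation of 0.9741 (SD 0.566) with TG 1 and 0.9717 (SD 0.638) with TG 2. DRG 2 also had 2.13% of its counts in 2 ribosomal RNA entries, 18S and LOC236598, against 0.226 to 0.487% in the other libraries. Genes of high GC content stood higher in DRG 2 than in DRG 1, with a median log2 ratio of DRG 1 over DRG 2 that ran from 0.209 in the lowest of 5 bins of GC content to −0.295 in the highest. Between TG 1 and TG 2 it ran from −0.099 to 0.13. The mean of the TG libraries over DRG 1 ran from 0.021 to −0.04, and over DRG 2 from 0.216 to −0.369, so that the comparison of labels carried a slope with GC content through DRG 2. With offsets for GC content, 1.86% of genes were higher in the TG label and 1.69% in the DRG label.

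**Figure D1:**
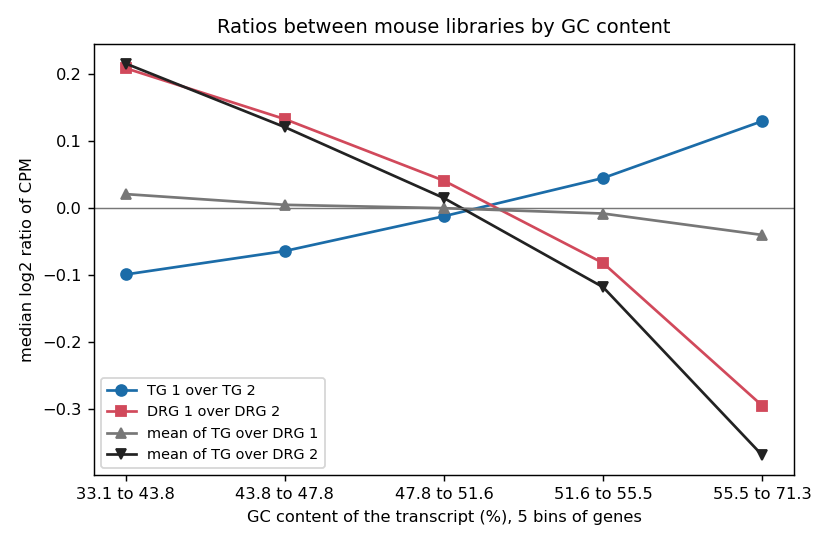
Median log2 ratio of CPM between mouse libraries (vertical axis) for 5 bins of genes by the GC content of their transcript in percent (horizontal axis). The ratio of DRG 1 over DRG 2 falls from 0.209 to −0.295, that of TG 1 over TG 2 climbs from −0.099 to 0.13, and the mean of the TG libraries over DRG 1 stays between 0.021 and −0.04, while that over DRG 2 falls from 0.216 to −0.369.

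The number of genes called rested on which libraries were kept. Without TG 1, 0.0382% of genes were higher in the TG label and 0.0143% in the DRG label, and without TG 2 these were 0.077% and 0.0722%. Without DRG 1 they were 9.77% and 13.1%, and without DRG 2 4.78% and 5.57%. Of 93 genes that met the rule for named genes and passed the test, 9 also passed without TG 1, which were Hoxa5, Hoxa7, Hoxa9, Hoxa10, Hoxb3, Myh4, Gfap, Mobp and Th. Without TG 2, 23 passed, and 10 genes low in the DRG label could not be tested in either setting. Without DRG 1 or DRG 2, 92 passed. A setting that leaves 1 library in a label takes its spread from the other label alone. Among genes that set DRG 2 apart from DRG 1 at 5 CPM or more, Pcsk1n, which encodes an inhibitor of prohormone convertase, stood at 45.02 and 25.3 CPM in TG 1 and TG 2, at 29.2 CPM in DRG 1 and at 835.5 CPM in DRG 2. Scand1, which encodes a SCAN domain protein, and Zfp771, which encodes a zinc finger protein, stood at 0.512 and 1.51 CPM in DRG 1 and at 29.7 and 38.3 CPM in DRG 2. Set apart in the other direction were Hpcal4 (39.9 CPM in DRG 1 and 4.49 CPM in DRG 2), Gad1 (19.1 and 2.16 CPM) and Ttr (22.2 and 3.33 CPM). For the sex given in the labels, Xist, the RNA that silences an X chromosome in females, stood at 394 and 389 CPM in TG 1 and TG 2 and 472 and 296 CPM in DRG 1 and DRG 2, and the Y-linked symbols Uty, Ddx3y and Eif2s3y at 0.0994 to 3.63 CPM. None of the 13 mitochondrially encoded genes had a row in the table.

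Hox genes were higher in the libraries labelled TG. Of 39 Hox genes in the table, 33 were tested, 25 of them were higher in the TG label and 0 in the DRG label, where 1.12% and 1.2% of all genes were. The largest difference in counts was that of Hoxb5, a gene of the cervical and thoracic body (mouse chromosome 11, 96303336 to 96306121, GRCm38). It had 2316 and 2189 counts in TG 1 and TG 2 and 0 in DRG 1 and DRG 2, which with a floor of 3 counts over the label makes it at least 1201-fold higher in the TG label (adjusted p 0.00502). Hoxc10, a lumbar gene, had 372 and 399 counts in the TG libraries and 0 in both DRG libraries, and was at least 206-fold higher (adjusted p 0.0112). These levels go against the labels, given where the trigeminal ganglion forms.

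By paralog group, which follows the order of the genes along the body from front to rear, 8 of 12 genes of groups 1 to 4, 11 of 11 of groups 5 to 8 and 6 of 10 of groups 9 to 13 were higher in the TG label, with median log2 fold changes of 3.10, 7.10 and 4.23. The median over all genes tested was −0.017. Summed over the genes of groups 5 to 8, the level was 99.1 and 86.99 CPM in TG 1 and TG 2 and 4.63 and 3.95 CPM in DRG 1 and DRG 2. Among the front groups, Hoxb3 stood at 17.7 and 14.6 CPM in TG 1 and TG 2 and 0.199 and 0.583 CPM in DRG 1 and DRG 2 (5.41 ± 0.52, adjusted p 0.0137). Hoxb1 and Hoxd1, both of group 1, were exceptions. Hoxb1 stood at 20.4 and 26.9 CPM in TG 1 and TG 2 and 23.2 and 26.02 CPM in DRG 1 and DRG 2 (adjusted p 0.916), and its labels overlapped. Hoxd1, which acts in nociceptors (chromosome 2, 74762980 to 74765142, GRCm38), stood at 22.8 and 21.2 CPM in TG 1 and TG 2 and 21.3 and 44.8 CPM in DRG 1 and DRG 2 (adjusted p 0.455), with DRG 2 above the other libraries, and without DRG 1 it passed as higher in the DRG label (adjusted p 0.000958). Hoxa2 (1.198 and 1.45 CPM in TG 1 and TG 2 and 0.168 and 0 CPM in DRG 1 and DRG 2) had both TG values above both DRG values and did not pass (adjusted p 0.157).

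In the middle groups, Hoxa7 stood at 15.2 and 13.7 CPM in TG 1 and TG 2 and 0.145 and 0.0343 CPM in DRG 1 and DRG 2 (7.21 ± 0.54, adjusted p 0.00837; chromosome 6, 52214491 to 52221854). Hoxc6, a thoracic gene, stood at 7.85 and 7.61 CPM in TG 1 and TG 2 and 0.0153 and 0.0228 CPM in DRG 1 and DRG 2 (adjusted p 0.00502). Hoxb7 had 1617 counts over the TG libraries and 2 over the DRG libraries, a ratio of 646.7 with a 95% counting interval of 178.7 to 5344. Hoxa5 stood at 5.71 and 8.02 CPM in TG 1 and TG 2 and 0.229 and 0.263 CPM in DRG 1 and DRG 2 (4.80 ± 0.36, adjusted p 0.00837), and for this gene the 4 libraries fell into 2 well separated pairs. Smaller differences were found for genes with more than 1 CPM in both DRG libraries, such as Hoxd8 (13.8 and 14.8 CPM in TG 1 and TG 2 and 2.23 and 2.07 CPM in DRG 1 and DRG 2, 2.73 ± 0.23, adjusted p 0.00994) and Hoxc8 (7.06 and 7.62 CPM in TG 1 and TG 2 and 1.67 and 1.32 CPM in DRG 1 and DRG 2, 2.29 ± 0.28, adjusted p 0.02). Low counts in the DRG label were also found for Hoxa3, Hoxa4 and Hoxa6, with 3, 2 and 3 counts over both libraries against 700, 744 and 648 in the TG label (ratios 186.6, 297.5 and 172.8).

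At the rear, Hoxa9, a gene of the posterior trunk, stood at 9.59 and 8.46 CPM in TG 1 and TG 2 and 0.283 and 0.16 CPM in DRG 1 and DRG 2 (5.31 ± 0.38, adjusted p 0.00837), and Hoxa10, a lumbar gene, at 8.87 and 11.1 CPM in TG 1 and TG 2 and 0.268 and 0.137 CPM in DRG 1 and DRG 2 (5.58 ± 0.41, adjusted p 0.00837). The smallest of the called differences was that of Hoxd9, at 11.4 and 8.97 CPM in TG 1 and TG 2 and 3.37 and 3.13 CPM in DRG 1 and DRG 2 (1.65 ± 0.25, adjusted p 0.0336). The hindmost genes were low in every library. Hoxa13 had 6 and 13 counts in the TG libraries and 5 and 60 in the DRG libraries (adjusted p 0.45), and Hoxc13 17 and 53 against 29 and 27 (adjusted p 0.972). Hoxd10 and Hoxd11 were higher in both TG libraries and did not pass (adjusted p 0.183 and 0.122), and 6 further genes, with at most 18 counts in a library, were not tested. Without TG 1, TG 2, DRG 1 and DRG 2, the number higher in the TG label was 1, 3, 9 and 10 in groups 1 to 4, 2, 4, 11 and 11 in groups 5 to 8 and 2, 3, 7 and 8 in groups 9 to 13, and several genes then had 10 counts in 1 library alone and were not tested. Hoxd3 and Hoxd4 overlap on chromosome 2 and share transcript sequence (86.7% and 43.1% of their 36-base windows occur in another gene), so that counts of these 2 are uncertain.

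**Figure D2:**
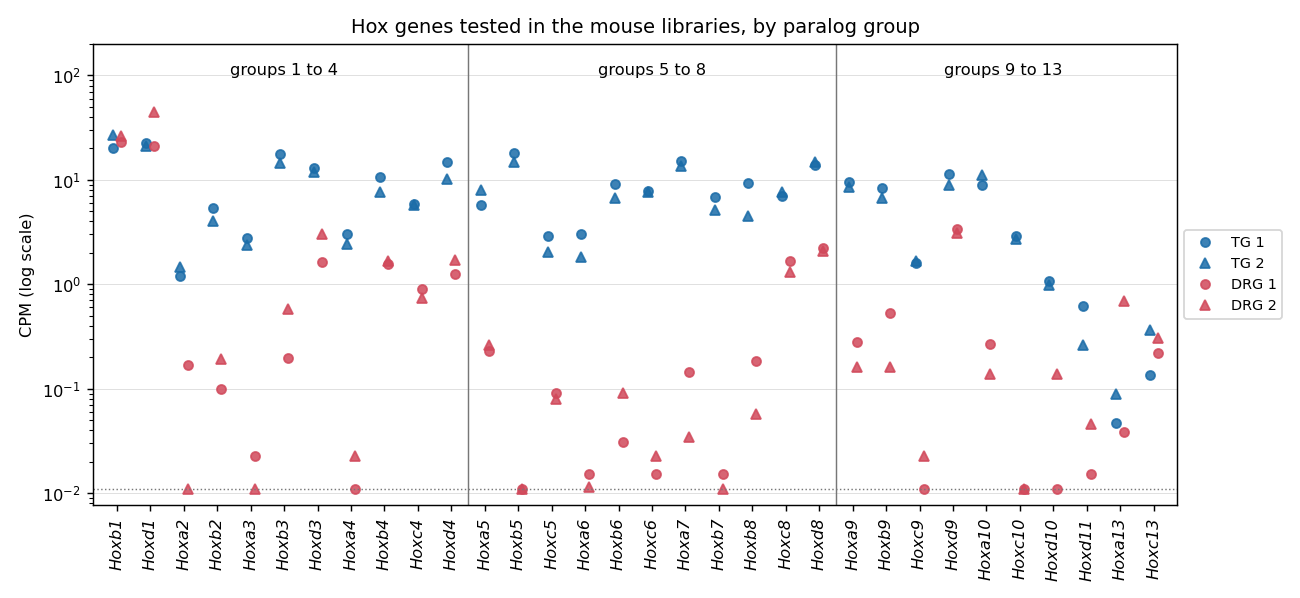
Level in CPM on a log scale (vertical axis) of 32 of the Hox genes tested, in order of paralog group, with 1 point per library (blue, TG label; red, DRG label; circles, library 1; triangles, library 2). Values of 0 are drawn on the dotted line at 0.011 CPM, the level of 3 counts over the TG libraries; in groups 5 to 8 both blue points lie above both red points for each of the 11 genes.

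Of other factors that mark position, a smaller share was called than of Hox genes. Of 9 TALE-class cofactors, which bind DNA beside Hox proteins, Meis2 was higher in the DRG label, at 25.8 and 27.9 CPM in TG 1 and TG 2 and 76.5 and 86.3 CPM in DRG 1 and DRG 2 (−1.60 ± 0.15, adjusted p 0.0128), and the other 8 did not pass. Among these, Pknox2 stood at 70.7 and 76.6 CPM in TG 1 and TG 2 and 49.02 and 45.1 CPM in DRG 1 and DRG 2 (adjusted p 0.0785). Of 19 tested head and jaw patterning factors, 1 was higher in the DRG label, which was the forebrain and jaw gene Dlx1 (0.166 and 0.137 CPM in TG 1 and TG 2 and 1.77 and 0.982 CPM in DRG 1 and DRG 2, −3.19 ± 0.56, adjusted p 0.0464). The list had a median of −0.95, and 15 of its 19 members had a negative change, toward the DRG label. Over all genes tested, 1.12% were called toward the TG label and 1.2% toward the DRG label, and 48.08% had a positive change. Of 7 trunk and limb mesoderm factors tested, 0 passed edgeR's test (2 at an unadjusted p under 0.05, toward the TG label, 1 with DESeq2 and 0 with limma-voom), with Meox2 at 4.696 and 4.86 CPM in TG 1 and TG 2 and 2.401 and 1.51 CPM in DRG 1 and DRG 2 (adjusted p 0.117). Over all genes tested, 3470 had an unadjusted p under 0.05.

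Myelin genes were higher in the libraries labelled DRG. Of 11 genes shared by Schwann cells and oligodendrocytes, 8 were higher in the DRG label and 0 in the TG label (median log2 fold change −1.58), and of 13 genes of peripheral myelin 8 and 0 (median −1.18), where 1.2% of all genes were higher in the DRG label. Mbp, which compacts the cytoplasmic face of myelin, stood at 1134 and 975 CPM in TG 1 and TG 2 and 2931 and 4300 CPM in DRG 1 and DRG 2 (−1.78 ± 0.21, adjusted p 0.0198). The DRG values were thus both more than double those of the TG libraries. Mag, an adhesion protein of the inner myelin wrap, stood at 22.1 and 21.8 CPM in TG 1 and TG 2 and 89.8 and 109.6 CPM in DRG 1 and DRG 2 (−2.18 ± 0.16, adjusted p 0.00837).

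Most genes known from Schwann cells moved with them. Of the 13 peripheral myelin genes, 12 had a negative and 1 a positive change, and DESeq2 and limma-voom each called 1 toward the TG label. Prx, which links the myelin sheath to the basal lamina, stood at 305 and 340.1 CPM in TG 1 and TG 2 and 929 and 1017 CPM in DRG 1 and DRG 2 (−1.59 ± 0.13, adjusted p 0.00994), and its partner Drp2 at 258 and 273 CPM in TG 1 and TG 2 and 628 and 574 CPM in DRG 1 and DRG 2 (−1.18 ± 0.12, adjusted p 0.0162). Egr2, the factor that turns on peripheral myelin genes, stood at 22.2 and 24.3 CPM in TG 1 and TG 2 and 71.1 and 90.1 CPM in DRG 1 and DRG 2 (−1.79 ± 0.17, adjusted p 0.0137). Cldn19, a tight junction protein of Schwann cells, stood at 49.2 and 51.5 CPM in TG 1 and TG 2 and 139.5 and 162 CPM in DRG 1 and DRG 2 (−1.58 ± 0.14, adjusted p 0.0112). Some members of the same lists did not pass, with Pmp22 at 783 and 818 CPM in TG 1 and TG 2 and 1137 and 1444 CPM in DRG 1 and DRG 2 (adjusted p 0.0865), Nfasc at 435 and 419 CPM in TG 1 and TG 2 and 716 and 604 CPM in DRG 1 and DRG 2 (adjusted p 0.0798) and S100b at 564 and 538 CPM in TG 1 and TG 2 and 647 and 768 CPM in DRG 1 and DRG 2 (adjusted p 0.268). With 1 library left out (TG 1, TG 2, DRG 1 or DRG 2), the number higher in the DRG label was 0, 1, 11 and 11 among shared and 0, 0, 11 and 10 among peripheral myelin genes. In whole ganglia, fewer cells of a type and less RNA per cell cannot be told apart.

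Of the 12 largest changes toward the DRG label, among called genes with at least 5 CPM and no overlap, 7 were those of genes of central glia. Of 14 genes of central myelin and oligodendrocytes, 7 were higher in the DRG label and 0 in the TG label, with a median of −3.38, and in all 14 both DRG values lay above both TG values. Over all genes tested, 1.2% were called toward the DRG label and 23.8% did not overlap in that direction. Their summed level was 80.2 and 85.7 CPM in TG 1 and TG 2 and 312 and 361 CPM in DRG 1 and DRG 2. Mobp, a protein of central myelin (chromosome 9, 120149707 to 120181484), stood at 4.59 and 6.03 CPM in TG 1 and TG 2 and 48.8 and 61.1 CPM in DRG 1 and DRG 2 (−3.37 ± 0.23, adjusted p 0.00837). Mog, which lies on the outer face of central myelin, stood at 0.394 and 0.315 CPM in TG 1 and TG 2 and 6.84 and 7.195 CPM in DRG 1 and DRG 2 (−4.30 ± 0.32, adjusted p 0.00837), and was thus below 1 CPM in both TG libraries. Ermn, an oligodendrocyte cytoskeletal protein, stood at 0.859 and 0.733 CPM in TG 1 and TG 2 and 11.3 and 11.1 CPM in DRG 1 and DRG 2 (−3.81 ± 0.27, adjusted p 0.00837). Olig1, an oligodendrocyte lineage factor, stood at 0.552 and 0.342 CPM in TG 1 and TG 2 and 6.24 and 9.75 CPM in DRG 1 and DRG 2 (−4.16 ± 0.41, adjusted p 0.0137). Bcas1, a gene of newly myelinating oligodendrocytes, stood at 33.3 and 35.8 CPM in TG 1 and TG 2 and 151 and 169.9 CPM in DRG 1 and DRG 2 (−2.21 ± 0.14, adjusted p 0.00824), so that the DRG values exceeded those of the TG label by about as much in either DRG library.

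Hapln2, which sits at central nodes of Ranvier, stood at 0.567 and 1.5 CPM in TG 1 and TG 2 and 9.598 and 18.5 CPM in DRG 1 and DRG 2 (−3.76 ± 0.56, adjusted p 0.032), and Klk6, a secreted protease of oligodendrocytes, at 0.52 and 0.144 CPM in TG 1 and TG 2 and 3.94 and 7.32 CPM in DRG 1 and DRG 2 (−4.09 ± 0.67, adjusted p 0.0401). Aspa and Cldn11 of the same list did not pass, at 24.4 and 25.9 CPM in TG 1 and TG 2 and 43.3 and 32.2 CPM in DRG 1 and DRG 2 (adjusted p 0.206) and 12 and 10.1 CPM in TG 1 and TG 2 and 18.7 and 29.9 CPM in DRG 1 and DRG 2 (adjusted p 0.0992). Of 8 astrocyte genes, 4 were higher in the DRG label (median −1.46), where 1.2% of all genes were. Gfap, the intermediate filament of astrocytes, which some Schwann and satellite cells also make, stood at 1.28 and 4.44 CPM in TG 1 and TG 2 and 61.4 and 102 CPM in DRG 1 and DRG 2 (−4.83 ± 0.62, adjusted p 0.0221). Gjb6 and Gja1, connexins of astrocyte junctions, stood at 3.601 and 4.22 CPM in TG 1 and TG 2 and 13.6 and 18.4 CPM in DRG 1 and DRG 2 (−2.03 ± 0.25, adjusted p 0.0203) and 21.9 and 23.3 CPM in TG 1 and TG 2 and 48.6 and 41.1 CPM in DRG 1 and DRG 2 (−0.99 ± 0.17, adjusted p 0.0415). Slc1a2, the main glutamate transporter of astrocytes, stood at 19.7 and 21.6 CPM in TG 1 and TG 2 and 93.97 and 31.5 CPM in DRG 1 and DRG 2 and did not pass (adjusted p 0.159), with DRG 1 far above DRG 2. When TG 1, TG 2, DRG 1 or DRG 2 was dropped, the number higher in the DRG label was 1, 6, 11 and 11 for central myelin and 1, 1, 7 and 7 for astrocytes.

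Among the same 12 changes, 5 genes belonged to neither of these lists. Calb2, the calcium-binding protein calretinin, stood at 7.54 and 6.601 CPM in TG 1 and TG 2 and 40.8 and 61.2 CPM in DRG 1 and DRG 2 (−2.85 ± 0.25, adjusted p 0.0108). Nrgn, a calmodulin-binding protein of forebrain neurons, stood at 1.57 and 1.98 CPM in TG 1 and TG 2 and 16.4 and 9.15 CPM in DRG 1 and DRG 2 (−2.85 ± 0.36, adjusted p 0.0203). Plk5, a kinase of the polo family, stood at 13.4 and 11.4 CPM in TG 1 and TG 2 and 59.5 and 91.1 CPM in DRG 1 and DRG 2 (−2.60 ± 0.24, adjusted p 0.0133). No overlap between the labels was a condition for entry among these 12 changes. Cidea, a lipid droplet protein of brown fat, stood at 1.28 and 1.71 CPM in TG 1 and TG 2 and 7.65 and 11.6 CPM in DRG 1 and DRG 2 (−2.68 ± 0.33, adjusted p 0.02), and Tmem178 at 1.25 and 2.25 CPM in TG 1 and TG 2 and 8.497 and 10.2 CPM in DRG 1 and DRG 2 (−2.42 ± 0.35, adjusted p 0.0309).

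The lists for neurons of the brain, choroid plexus and meninges held no called gene, and several of their members differed between the libraries labelled DRG. Nrgn, given above, was not on them. Of 12 tested genes of neurons of the brain and spinal cord, 0 passed edgeR's test (4 at an unadjusted p under 0.05, toward the DRG label, 3 with DESeq2 and 0 with limma-voom), and their summed level was 175 and 179 CPM in TG 1 and TG 2 and 279 and 296 CPM in DRG 1 and DRG 2. Gad1, which makes the inhibitory transmitter GABA, stood at 0.851 and 2.01 CPM in TG 1 and TG 2 and 19.1 and 2.16 CPM in DRG 1 and DRG 2 (adjusted p 0.216). Slc32a1, the vesicular GABA transporter, stood at 0.284 and 0.192 CPM in TG 1 and TG 2 and 6.89 and 0.777 CPM in DRG 1 and DRG 2 (adjusted p 0.113), and Gabra6, a GABA receptor subunit of cerebellar granule cells, at 0.11 and 0.192 CPM in TG 1 and TG 2 and 3.57 and 0.525 CPM in DRG 1 and DRG 2 (adjusted p 0.116). The high values were thus those of DRG 1. Ttr, the main secreted protein of choroid plexus, followed the same order, at 0.686 and 1.02 CPM in TG 1 and TG 2 and 22.2 and 3.33 CPM in DRG 1 and DRG 2 (adjusted p 0.0849), and 0 of 6 choroid plexus genes passed edgeR's test (2 at an unadjusted p under 0.05, toward the DRG label, 2 with DESeq2 and 0 with limma-voom). Of 11 genes of meninges 0 passed it (5 at an unadjusted p under 0.05, toward the DRG label, 4 with DESeq2 and 0 with limma-voom), with Aldh1a2 at 4.22 and 2.94 CPM in TG 1 and TG 2 and 6.77 and 11.2 CPM in DRG 1 and DRG 2 (adjusted p 0.12).

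Prl, Gh and Pomc, hormone genes of the pituitary, stood higher in DRG 2 than in DRG 1 and were low in the TG label. Prl, which encodes prolactin (chromosome 13, 27057570 to 27065205), stood at 0 and 1.03 CPM in TG 1 and TG 2 and 45.7 and 161 CPM in DRG 1 and DRG 2 (−7.61 ± 1.42), and its adjusted p of 0.0549 missed the threshold, as it did without TG 1 (0.0591). It passed without TG 2 (0.00449), DRG 1 (7.68e-05) or DRG 2 (0.000123). Gh, which encodes growth hormone, stood at 1.81 and 2.35 CPM in TG 1 and TG 2 and 7.15 and 53.4 CPM in DRG 1 and DRG 2 (adjusted p 0.0919), and Pomc, the precursor of corticotropin, at 0.378 and 0.384 CPM in TG 1 and TG 2 and 0.75 and 5.34 CPM in DRG 1 and DRG 2 (adjusted p 0.164). Tshb, a subunit of thyrotropin, lay the other way, at 2.02 and 0.87 CPM in TG 1 and TG 2 and 0.558 and 0.457 CPM in DRG 1 and DRG 2 (adjusted p 0.243). Of 9 pituitary genes tested 0 passed edgeR's test (5 at an unadjusted p under 0.05 of which 1 lay toward the TG label, 3 with DESeq2 and 0 with limma-voom), 7 had a negative and 2 a positive change, and their summed level was 5.902 and 6.04 CPM in TG 1 and TG 2 and 56.4 and 223 CPM in DRG 1 and DRG 2. In fits that left out TG 1, TG 2, DRG 1 or DRG 2, 0, 1, 3 and 2 were higher in the DRG label. The part of pituitary, brain or other neighbouring tissue in the differences between the labels was not tested.

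**Figure D3:**
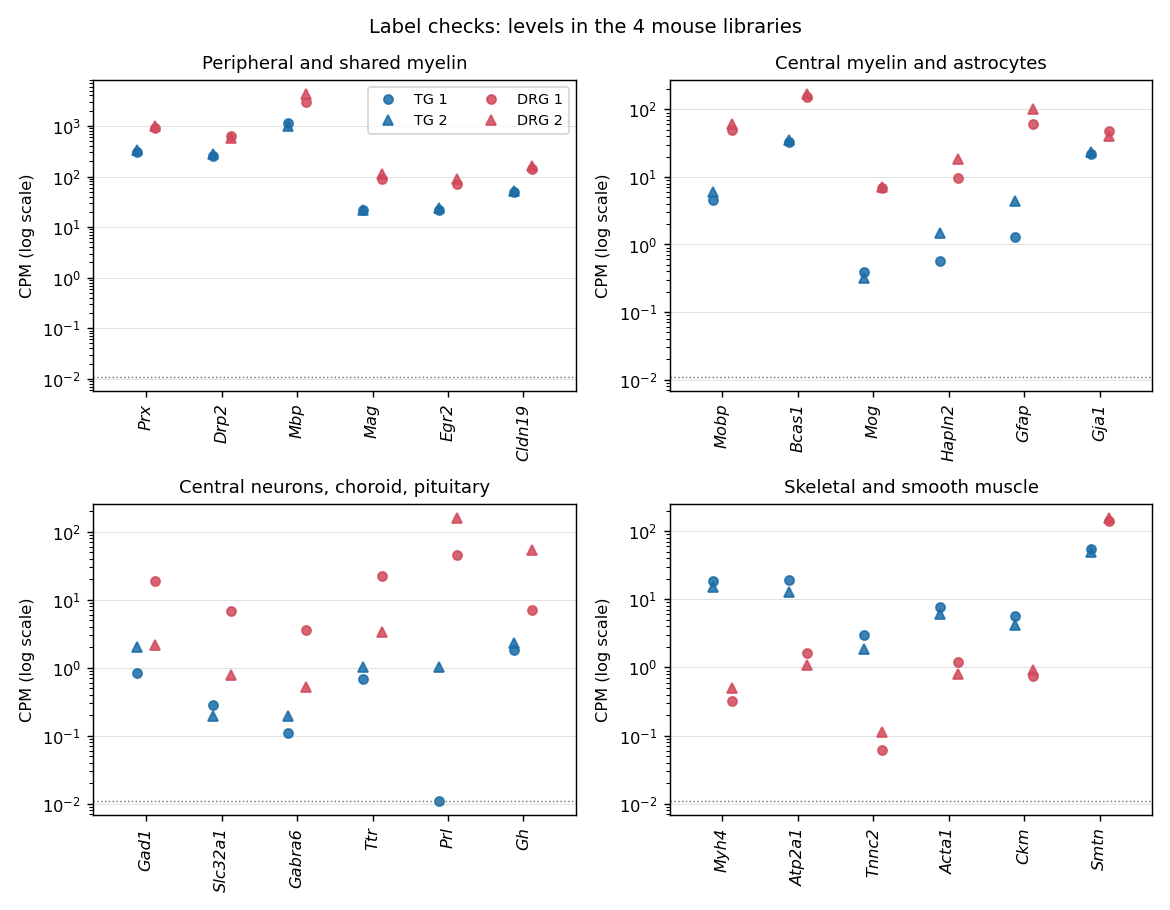
Level in CPM on a log scale (vertical axes) of label-check genes in each mouse library (blue, TG label; red, DRG label; circles, library 1; triangles, library 2), in panels for myelin, central glia, other tissues of the head, and muscle. The dotted line is drawn at 0.011 CPM and carries the value of 0 for Prl in TG 1; myelin and central glia genes are higher in red and the skeletal muscle genes shown in blue, while Gad1 and Ttr are high in DRG 1 and Prl and Gh highest in DRG 2.

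Genes of fast skeletal muscle and part of those of skeletal muscle in general went the other way. Of 14 genes of fast muscle fibres, 6 were higher in the TG label and 0 in the DRG label (median 2.48), and of 15 tested genes of skeletal muscle in general 4 and 0 (median 1.63), where 1.12% of all genes were higher in the TG label. The summed level of fast fibre genes was 82.5 and 65.2 CPM in TG 1 and TG 2 and 24.99 and 23.1 CPM in DRG 1 and DRG 2. For the general list it was closer, at 83.7 and 78.8 CPM in TG 1 and TG 2 and 77.5 and 65.7 CPM in DRG 1 and DRG 2. Myh4, the myosin heavy chain of the fastest fibres, stood at 18.8 and 15.2 CPM in TG 1 and TG 2 and 0.321 and 0.502 CPM in DRG 1 and DRG 2 (5.38 ± 0.34, adjusted p 0.00824). Atp2a1, the calcium pump of fast fibres, stood at 19.5 and 12.9 CPM in TG 1 and TG 2 and 1.61 and 1.08 CPM in DRG 1 and DRG 2 (3.58 ± 0.34, adjusted p 0.0137). Acta1, skeletal actin, stood at 7.83 and 6.05 CPM in TG 1 and TG 2 and 1.201 and 0.811 CPM in DRG 1 and DRG 2 (2.78 ± 0.34, adjusted p 0.02), and Ckm, muscle creatine kinase, at 5.78 and 4.14 CPM in TG 1 and TG 2 and 0.75 and 0.902 CPM in DRG 1 and DRG 2 (2.59 ± 0.34, adjusted p 0.0229). These genes stayed below 20 CPM in all 4 libraries, and Myh4 and Myh1 share 26.5% and 35.4% of their 36-base windows with other genes. Ldb3 and Neb, which are also muscle genes, stood at 25.02 and 23.1 CPM in TG 1 and TG 2 and 27.1 and 27.1 CPM in DRG 1 and DRG 2 (adjusted p 0.651) and 16.3 and 19.5 CPM in TG 1 and TG 2 and 31.7 and 21.9 CPM in DRG 1 and DRG 2 (adjusted p 0.29). Of 9 slow fibre genes 0 passed edgeR's test (2 at an unadjusted p under 0.05 of which 1 lay toward the TG label, 2 with DESeq2 and 0 with limma-voom), with Myh7b at 2.08 and 2.48 CPM in TG 1 and TG 2 and 4.79 and 6.396 CPM in DRG 1 and DRG 2 (adjusted p 0.0878). Without TG 1, TG 2, DRG 1 and DRG 2, 1, 3, 9 and 9 fast and 0, 0, 6 and 5 general muscle genes were higher in the TG label. Of 6 smooth muscle genes, Smtn was higher in the DRG label (54.5 and 49.6 CPM in TG 1 and TG 2 and 142 and 157 CPM in DRG 1 and DRG 2, −1.52 ± 0.14, adjusted p 0.0119) and Cnn1 in the TG label (1.64 and 1.43 CPM in TG 1 and TG 2 and 0.199 and 0.194 CPM in DRG 1 and DRG 2, 2.96 ± 0.46, adjusted p 0.0345).

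Genes of sensory neurons in general were close between the labels. Of 14 such genes 0 passed edgeR's test (3 at an unadjusted p under 0.05, toward the TG label, 1 with DESeq2 and 0 with limma-voom), the median change was 0.11, and the summed level was 21920 and 21210 CPM in TG 1 and TG 2 and 19380 and 23900 CPM in DRG 1 and DRG 2. Nefl, the light neurofilament, stood at 5681 and 5078 CPM in TG 1 and TG 2 and 5206 and 7037 CPM in DRG 1 and DRG 2 (adjusted p 0.666), and Avil, an actin regulator of sensory neurons, at 1314 and 1233 CPM in TG 1 and TG 2 and 1009 and 1057 CPM in DRG 1 and DRG 2 (adjusted p 0.301). Stmn2, which regulates microtubules in growing axons, stood at 1451 and 1478 CPM in TG 1 and TG 2 and 987 and 1016 CPM in DRG 1 and DRG 2 (adjusted p 0.0818). For Avil and Stmn2 both TG values lay above both DRG values, and for Nefl the labels overlapped.

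Against that, genes of nonpeptidergic nociceptors, the unmyelinated neurons that end in the outer skin, were higher in the TG label. Of 10 such genes, 8 were higher in the TG label and 0 in the DRG label (median 1.21), and all 10 had both TG values above both DRG values. Over all genes tested these shares were 1.12% and 24.3%. Scn11a, the sodium channel Nav1.9 (chromosome 9, 119753759 to 119825456), stood at 936 and 1005 CPM in TG 1 and TG 2 and 437 and 366 CPM in DRG 1 and DRG 2 (1.27 ± 0.14, adjusted p 0.018). P2rx3, an ATP-gated channel, stood at 442 and 481 CPM in TG 1 and TG 2 and 246 and 261 CPM in DRG 1 and DRG 2 (0.86 ± 0.12, adjusted p 0.0293). Mrgprd, a receptor for beta-alanine, stood at 143 and 163 CPM in TG 1 and TG 2 and 62.4 and 54.5 CPM in DRG 1 and DRG 2 (1.39 ± 0.14, adjusted p 0.0156). Scn11a, P2rx3 and Mrgprd were named by their level or adjusted p, so their shared direction is no separate result. Gfra2, the receptor for neurturin, stood at 299.8 and 292 CPM in TG 1 and TG 2 and 136 and 147 CPM in DRG 1 and DRG 2 (1.07 ± 0.12, adjusted p 0.0181), and Plxnc1, a semaphorin receptor, at 479 and 524 CPM in TG 1 and TG 2 and 227 and 176 CPM in DRG 1 and DRG 2 (1.31 ± 0.16, adjusted p 0.02). Prkcq, a protein kinase C, stood at 104 and 112 CPM in TG 1 and TG 2 and 32.5 and 28.7 CPM in DRG 1 and DRG 2 (1.82 ± 0.14, adjusted p 0.0096). Ret, the shared signalling receptor of the GDNF family, did not pass (1138 and 1202 CPM in TG 1 and TG 2 and 1017 and 965 CPM in DRG 1 and DRG 2, adjusted p 0.402). With 1 library left out (TG 1, TG 2, DRG 1 or DRG 2), 0, 0, 9 and 9 of the 10 were higher in the TG label.

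Of 9 genes of peptidergic nociceptors, 2 were higher in the TG label and 0 in the DRG label (median 0.98), where 1.12% of all genes were higher in the TG label. Calcb, which encodes beta-CGRP, stood at 131 and 114 CPM in TG 1 and TG 2 and 36.9 and 43.3 CPM in DRG 1 and DRG 2 (1.61 ± 0.15, adjusted p 0.0137), and Trpv1, the capsaicin and heat receptor, at 125 and 130.5 CPM in TG 1 and TG 2 and 56.98 and 50.97 CPM in DRG 1 and DRG 2 (1.24 ± 0.13, adjusted p 0.0162). Calca, which encodes alpha-CGRP, did not pass (984 and 816 CPM in TG 1 and TG 2 and 376 and 536 CPM in DRG 1 and DRG 2, adjusted p 0.0703), nor did Tac1, the precursor of substance P (154 and 149 CPM in TG 1 and TG 2 and 108 and 161 CPM in DRG 1 and DRG 2, adjusted p 0.725), for which the labels overlapped. Of 11 genes of itch neurons, 4 were higher in the TG label (median 1.14). Osmr and Il31ra, which pair as the receptor for interleukin 31, stood at 61.1 and 77.6 CPM in TG 1 and TG 2 and 25.6 and 24.3 CPM in DRG 1 and DRG 2 (1.48 ± 0.17, adjusted p 0.0188) and 52.8 and 62.8 CPM in TG 1 and TG 2 and 20.4 and 13.6 CPM in DRG 1 and DRG 2 (1.76 ± 0.23, adjusted p 0.0242). Mrgpra3, the chloroquine receptor, stood at 23.8 and 24.7 CPM in TG 1 and TG 2 and 5.93 and 10.1 CPM in DRG 1 and DRG 2 (1.60 ± 0.28, adjusted p 0.0475), with 16.7% of its 36-base windows shared with related genes. Nts, the neurotensin precursor, stood higher in the DRG label and did not pass (7.49 and 6.68 CPM in TG 1 and TG 2 and 13.8 and 21.9 CPM in DRG 1 and DRG 2, adjusted p 0.0712). When TG 1, TG 2, DRG 1 or DRG 2 was dropped, 0, 0, 4 and 7 peptidergic and 0, 0, 5 and 7 itch genes were higher in the TG label, where 9.77% of all genes were without DRG 1 and 4.78% without DRG 2.

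Receptors for cold, heat and irritants split between the labels. Of 11, 3 were higher in the TG label and 1 in the DRG label, where 1.12% and 1.2% of all genes were. Trpa1, the irritant receptor, stood at 88.98 and 94.2 CPM in TG 1 and TG 2 and 45.97 and 47.4 CPM in DRG 1 and DRG 2 (0.97 ± 0.13, adjusted p 0.0252), and Scn10a, the sodium channel Nav1.8 that fires nociceptors, at 1479 and 1558 CPM in TG 1 and TG 2 and 852 and 667 CPM in DRG 1 and DRG 2 (1.00 ± 0.16, adjusted p 0.0356). Trpm8, the cold and menthol receptor (chromosome 1, 88277661 to 88389293), went the other way, at 45.8 and 48.2 CPM in TG 1 and TG 2 and 154 and 103 CPM in DRG 1 and DRG 2 (−1.45 ± 0.21, adjusted p 0.0295), with both DRG values at least double those of the TG label. Scn9a, the channel Nav1.7, did not pass (447 and 495 CPM in TG 1 and TG 2 and 331 and 238 CPM in DRG 1 and DRG 2, adjusted p 0.11). In fits that left out TG 1, TG 2, DRG 1 or DRG 2, 0, 0, 6 and 5 of the list were higher in the TG label and 0, 0, 2 and 2 in the DRG label. Of 13 sodium channel genes, Scn11a and Scn10a passed, and Scn4b, an auxiliary subunit of large neurons, stood at 629 and 639 CPM in TG 1 and TG 2 and 981 and 924 CPM in DRG 1 and DRG 2 (adjusted p 0.0698).

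The largest change among genes of touch neurons was that of Th, tyrosine hydroxylase, which marks unmyelinated low-threshold touch fibres as well as sympathetic neurons (chromosome 7, 142892752 to 142931128). It stood at 112 and 95.8 CPM in TG 1 and TG 2 and 7.58 and 9.21 CPM in DRG 1 and DRG 2 (3.63 ± 0.18, adjusted p 0.00502), and it passed without each of the 4 libraries. Fam19a4, a secreted protein of the same fibres, was also higher in the TG label (44.1 and 49.1 CPM in TG 1 and TG 2 and 15.6 and 15.7 CPM in DRG 1 and DRG 2, 1.57 ± 0.16, adjusted p 0.0145). Maf, a factor of rapidly adapting touch neurons, was higher in the DRG label (45.7 and 40.6 CPM in TG 1 and TG 2 and 96.9 and 139.8 CPM in DRG 1 and DRG 2, −1.45 ± 0.20, adjusted p 0.0278). In all, 3 of 13 genes of low-threshold touch neurons were higher in the TG label and 1 in the DRG label (median −0.29), where 1.12% and 1.2% of all genes were. Without TG 1, TG 2, DRG 1 and DRG 2, 1, 1, 5 and 5 were higher in the TG label and 0, 0, 5 and 3 in the DRG label. Fam38b, the touch channel Piezo2, stood at 770.3 and 773 CPM in TG 1 and TG 2 and 544 and 409 CPM in DRG 1 and DRG 2 (adjusted p 0.0995), and Ntrk2, the BDNF receptor, at 174 and 178 CPM in TG 1 and TG 2 and 218 and 212 CPM in DRG 1 and DRG 2 (adjusted p 0.3). Neither passed. Of 19 tested candidates for mechanotransduction, 1 passed, which was Accn3, the acid-sensing channel ASIC3, higher in the DRG label (159 and 138 CPM in TG 1 and TG 2 and 252 and 295 CPM in DRG 1 and DRG 2, −0.88 ± 0.14, adjusted p 0.0401). Its call was lost without TG 1 (adjusted p 0.355) and without TG 2 (0.431).

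Of 9 genes of proprioceptors, Etv1, a factor these neurons need, was higher in the TG label (104 and 115 CPM in TG 1 and TG 2 and 42.3 and 29.3 CPM in DRG 1 and DRG 2, 1.61 ± 0.20, adjusted p 0.0203), with 19.9% of its 36-base windows shared with other genes. Pvalb, a calcium-binding protein of proprioceptors, stood at 41.95 and 29.3 CPM in TG 1 and TG 2 and 25.7 and 55.6 CPM in DRG 1 and DRG 2 (adjusted p 0.846), and Ntrk3, the NT-3 receptor, at 33.8 and 34.7 CPM in TG 1 and TG 2 and 28.8 and 23.8 CPM in DRG 1 and DRG 2 (adjusted p 0.342). Neither passed, and the labels overlapped for Pvalb. Among 20 tested transcription factors of sensory neurons, Runx1, which sets the nonpeptidergic fate, was higher in the TG label (82.03 and 90.6 CPM in TG 1 and TG 2 and 45.8 and 50.4 CPM in DRG 1 and DRG 2, 0.84 ± 0.14, adjusted p 0.0412). Pou4f1 and Isl1, which mark sensory neurons as a class, stood at 132 and 139 CPM in TG 1 and TG 2 and 96.05 and 159 CPM in DRG 1 and DRG 2 (adjusted p 0.888) and 97.1 and 98.96 CPM in TG 1 and TG 2 and 123 and 114 CPM in DRG 1 and DRG 2 (adjusted p 0.356).

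Few receptors for transmitters passed. Of 24 tested GABA-A, glycine and nicotinic receptor subunits, 2 were higher in the TG label and 1 in the DRG label, where 1.12% and 1.2% of all genes were. Chrna3 and Chrna6, nicotinic subunits, stood at 23.5 and 24.2 CPM in TG 1 and TG 2 and 5.96 and 6.35 CPM in DRG 1 and DRG 2 (1.96 ± 0.19, adjusted p 0.0137) and 64.8 and 72.9 CPM in TG 1 and TG 2 and 29.7 and 28.7 CPM in DRG 1 and DRG 2 (1.24 ± 0.15, adjusted p 0.0198), and Gabra5, a GABA-A subunit, at 7.904 and 7.47 CPM in TG 1 and TG 2 and 20.5 and 16.7 CPM in DRG 1 and DRG 2 (−1.28 ± 0.21, adjusted p 0.0401). Of 11 opioid and other inhibitory receptors, Npy2r, a neuropeptide Y receptor, passed, at 32.9 and 35.5 CPM in TG 1 and TG 2 and 12.99 and 9.67 CPM in DRG 1 and DRG 2 (1.59 ± 0.21, adjusted p 0.0229). Of 18 neuropeptide genes, Calcb alone passed, and Gal, which encodes galanin, stood at 16.1 and 14.1 CPM in TG 1 and TG 2 and 4.19 and 6.84 CPM in DRG 1 and DRG 2 (adjusted p 0.066). Each of these calls was lost without TG 1 or TG 2.

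**Figure D4:**
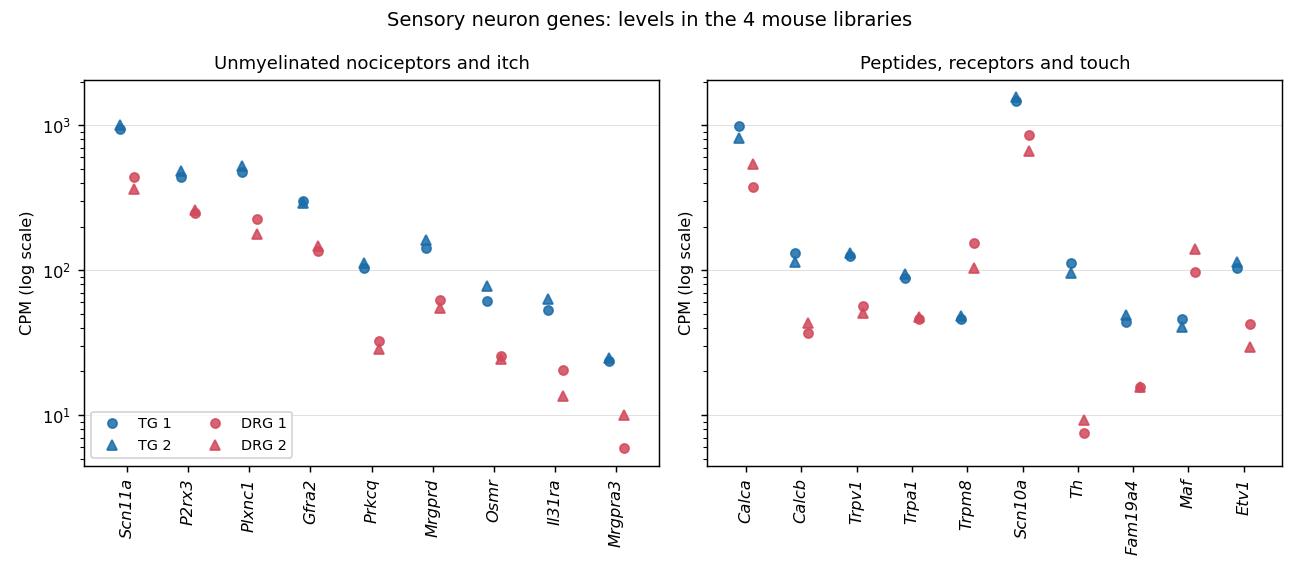
Level in CPM on a log scale (vertical axis) of 19 sensory neuron genes in each mouse library (blue, TG label; red, DRG label; circles, library 1; triangles, library 2). The genes drawn were a choice, and all but Calca had passed the test, so their lack of overlap is no separate result. Both blue points lie above both red points for 17 of them, and below for Trpm8 and Maf. Over all genes tested these shares were 24.3% and 23.8%. The gap is widest for Th, at 112 and 95.8 CPM against 7.58 and 9.21 CPM.

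Glia other than myelinating cells and cells of connective tissue and blood gave fewer calls than myelin genes. Over all genes tested, 1.12% were higher in the TG label and 1.2% in the DRG label. Of 9 genes of satellite glia, which wrap sensory neuron bodies, 0 passed edgeR's test (5 at an unadjusted p under 0.05, toward the DRG label, 3 with DESeq2 and 0 with limma-voom; median −0.51). Apoe, which carries lipid, stood at 482 and 359.5 CPM in TG 1 and TG 2 and 475 and 2838 CPM in DRG 1 and DRG 2 (adjusted p 0.254), so that DRG 2 stood alone, and Glul, glutamine synthetase, at 398 and 429 CPM in TG 1 and TG 2 and 587 and 806 CPM in DRG 1 and DRG 2 (adjusted p 0.0973). Of 7 genes of non-myelinating Schwann cells 0 passed it (2 at an unadjusted p under 0.05 of which 1 lay toward the TG label, 2 with DESeq2 and 0 with limma-voom), with L1cam at 969 and 958 CPM in TG 1 and TG 2 and 680.2 and 604 CPM in DRG 1 and DRG 2 (adjusted p 0.0802). Of 10 fibroblast genes, Col3a1 and Dpt, proteins of the extracellular matrix, were higher in the TG label (139.6 and 139 CPM in TG 1 and TG 2 and 71.4 and 57.6 CPM in DRG 1 and DRG 2, 1.11 ± 0.15, adjusted p 0.026; 2.63 and 2.198 CPM in TG 1 and TG 2 and 0.39 and 0.365 CPM in DRG 1 and DRG 2, 2.67 ± 0.38, adjusted p 0.03), and Col1a1 stood at 103 and 78.1 CPM in TG 1 and TG 2 and 125 and 103 CPM in DRG 1 and DRG 2 (adjusted p 0.431).

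Of 12 immediate early genes, 2 were higher in the DRG label, which were Egr2, given above among myelin genes, and Atf3, a stress factor that is also 1 of 11 nerve injury genes (7.05 and 6.81 CPM in TG 1 and TG 2 and 20.2 and 25.4 CPM in DRG 1 and DRG 2, −1.72 ± 0.21, adjusted p 0.02). Jun stood at 92.03 and 71.02 CPM in TG 1 and TG 2 and 116 and 251 CPM in DRG 1 and DRG 2 (adjusted p 0.17), and all 12 had a negative change. Over all genes tested, 1.12% were higher in the TG label and 1.2% in the DRG label, and 48.08% had a positive change. Of 12 macrophage genes 0 passed edgeR's test (4 at an unadjusted p under 0.05, toward the DRG label, 3 with DESeq2 and 0 with limma-voom), and all 12 had a negative change (median −0.65), with Csf1r at 13.2 and 11.96 CPM in TG 1 and TG 2 and 21.5 and 24.7 CPM in DRG 1 and DRG 2 (adjusted p 0.0754). Of 8 blood genes 0 passed it (2 at an unadjusted p under 0.05 of which 1 lay toward the TG label, 0 with DESeq2 and 0 with limma-voom), and Hbb-b1, adult beta-globin, stood at 7.93 and 9.19 CPM in TG 1 and TG 2 and 16.1 and 103 CPM in DRG 1 and DRG 2 (adjusted p 0.142). S100a9, a neutrophil protein, passed as 1 of 8 genes of neutrophils and marrow, with 0.78 and 0.671 CPM in the TG libraries and 0 in both DRG libraries, and was at least 52.5-fold higher (adjusted p 0.0327). Of 11 tested genes of bone and cartilage, Bglap2 passed, with 2 counts over the TG label and 174 over the DRG label, a ratio of 0.00919 with a 95% counting interval of 0.0011 to 0.0337; 94% of its 36-base windows are shared with another gene, which makes the count uncertain. Of 9 endothelial genes 0 passed edgeR's test (1 at an unadjusted p under 0.05, toward the DRG label, 1 with DESeq2 and 0 with limma-voom). Among 7 tested lymphocyte genes 0 passed it (1 at an unadjusted p under 0.05, toward the TG label, 1 with DESeq2 and 0 with limma-voom), and among 11 tested surface epithelium genes 0 did (0 at an unadjusted p under 0.05, 0 with DESeq2 and 0 with limma-voom). Of 7 tested adipocyte genes Cidea passed, toward the DRG label, whereas 5 of the 7 had a positive change (median 2.03), among them Cfd at 0.528 and 0.918 CPM in TG 1 and TG 2 and 0.191 and 0.148 CPM in DRG 1 and DRG 2 (adjusted p 0.174).

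**Figure D5:**
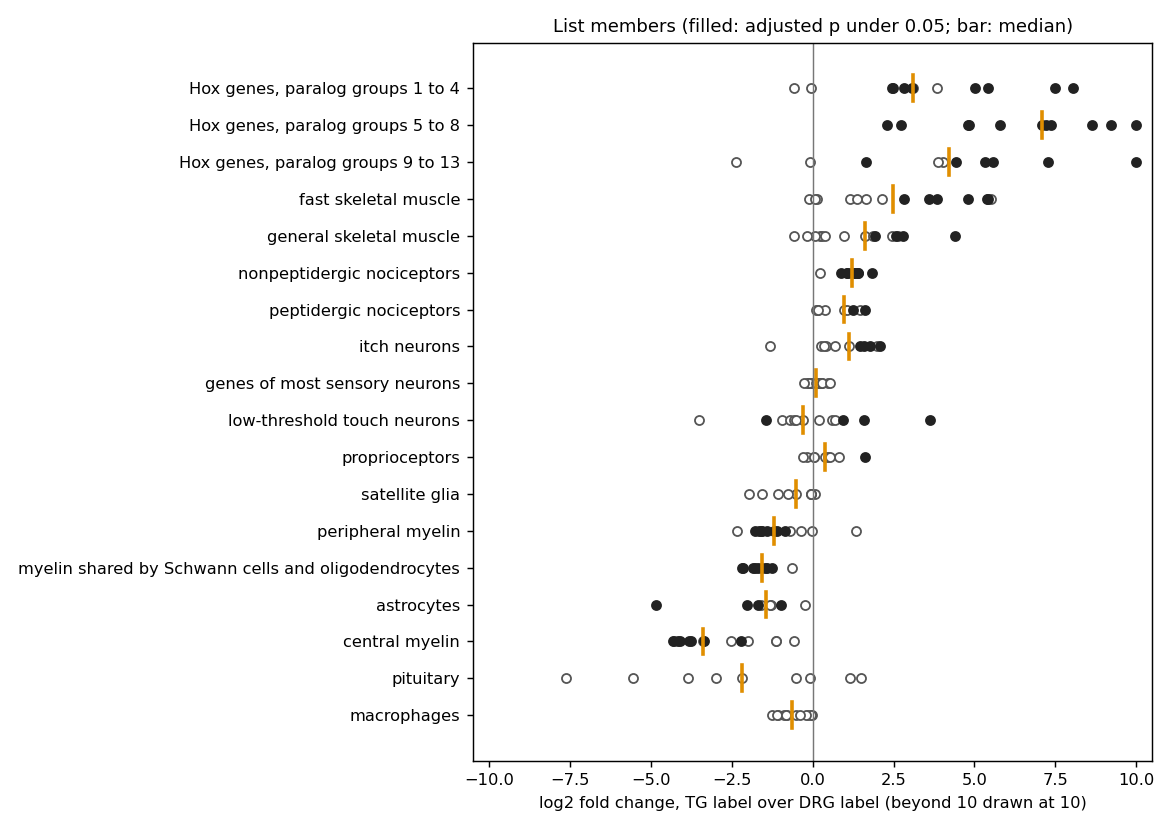
Log2 fold change of the TG label over the DRG label (horizontal axis) for each tested member of 18 gene lists (rows), filled where edgeR's adjusted p was under 0.05, with the median of the list as an orange bar. Hoxb5 and Hoxc10, with 0 counts in both DRG libraries, are drawn at 10; medians lie at 7.10 for Hox groups 5 to 8, 1.21 for nonpeptidergic nociceptors, 0.11 for genes of most sensory neurons and −3.38 for central myelin.

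The star-nosed mole libraries of the series, 3 of each ganglion from adult wild males with 1 DRG library pooled from 2 individuals, gave the same contrast in another species. Whether the difference between TG and DRG differed between mouse and mole was tested as an interaction over 15938 genes, and by it the mouse difference lay more toward the TG label in 16.2% and more toward the DRG label in 7.5% of genes. These 3780 genes became 1226 when mouse TG 1 was left out, 1024 when TG 2 was, 2164 when DRG 1 was and 897 when DRG 2 was. Leaving out mole TG 1, mole TG 2 or mole DRG 2 gave 5988, 2450 or 6034. Xist stood at 18, 10.2 and 6.75 CPM in mole TG and 21.97, 8.56 and 1.701 CPM in mole DRG, and Uty at 0.558, 1.56 and 2.28 CPM and 1.004, 4.93 and 9.77 CPM, so that the mole libraries labelled male also held Xist reads. Species, sex, sequencing kit and the transcripts used for alignment cannot be told apart here.

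Most Hox genes were opposed by label between the species. Exceptions included Hoxd11, with changes of 1.74 in moles and 3.87 in mice (interaction adjusted p 0.0709), and Hoxd1, with −2.27 and −0.59. All 11 genes of groups 5 to 8 differed toward the TG label in the mouse, and their median change was −3.18 in moles against 7.10 in mice. Hoxa9 stood at 0.14, 0.0978 and 0.0912 CPM in mole TG 1, 2 and 3 and at 42.1, 30.97 and 43.1 CPM in mole DRG 1, 2 and 3 (interaction 13.88 ± 0.65, mouse minus mole, adjusted p 1.03e-05). Central myelin genes were reversed too, with 11 of 14 differing toward the DRG label in the mouse and medians of 3.51 in moles and −3.38 in mice. Mobp stood at 240, 42.4 and 89.3 CPM in mole TG and 14.5, 12.8 and 6.14 CPM in mole DRG (interaction −6.78 ± 0.95, adjusted p 0.00203). Prl stood at 4.88, 28.3 and 6.38 CPM in mole TG and 0.446, 3.75 and 2.1 CPM in mole DRG (interaction −10.19 ± 2.12, adjusted p 0.00898).

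Most nociceptor genes were likewise opposed by label. Scn11a stood at 12.6, 8.51 and 10.9 CPM in mole TG and 496, 298 and 708 CPM in mole DRG (interaction 6.91 ± 0.54, adjusted p 0.00015), and Trpa1 at 8.65, 8.21 and 8.57 CPM and 117, 87.5 and 164 CPM (interaction 4.92 ± 0.41, adjusted p 0.000249). Of 10 nonpeptidergic genes, 7 differed toward the TG label in the mouse (median −1.30 in moles, 1.21 in mice). Mrgprd and Gal, both low in moles, had positive changes in both species. These were 2.33 in moles and 1.39 in mice for Mrgprd (interaction adjusted p 0.428) and 2.53 and 1.45 for Gal (0.477). Trpm8, by contrast, stood at 8.79, 16.04 and 17.8 CPM in mole TG and 59.4, 39.5 and 55.7 CPM in mole DRG, toward DRG as by label in the mouse, with an interaction of 0.48 ± 0.48 (adjusted p 0.488). Skeletal muscle genes had positive medians in both species, for fast fibres 2.19 in moles and 2.48 in mice, with 3 of 14 differing toward the TG label and 1 toward the DRG label in the mouse. Th stood at 425, 490.2 and 396 CPM in mole TG and 191, 390 and 307 CPM in mole DRG (interaction 3.15 ± 0.43, adjusted p 0.00203), with a wider difference in the mouse. Most Hox and most central myelin genes thus ran opposite by label in the mouse and the mole, and Trpm8 and, by their median, fast muscle genes ran the same way. Groups were kept as labelled.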

How the data were processed

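RNA of mouse and mole ganglia was sequenced after poly-A selection, in mouse libraries made with the TruSeq kit. The labels give mouse reads as paired ends and the study's methods give single ends, and the counts do not settle which. The authors aligned mouse reads to mouse mRNA sequences with Stampy and deposited read counts per gene, each the sum over its transcripts. Mole counts, deposited by the authors likewise, sum over homologs in human, dog and mouse transcripts. Other deposited files hold names of genes the authors called and were not used. The strand of reads was not given in the sources used here. Counting error at depths of 90548941 to 147076817 counts is small beside the spread between libraries of a label, and intervals and floors (3 counts over a label) cover counting error only.

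The test was edgeR 4.0.16 in R 4.3.3 (TMM factors, quasi-likelihood test, 2 libraries per label, no covariate, Benjamini-Hochberg over all genes tested). The standard error is the size of the log2 fold change divided by the square root of F. Alternatives were other factors (RLE), other filters, DESeq2 1.42.0, limma-voom (limma 3.58.1), each library left out, a replicate block and GC offsets (loess, span 0.3, GENCODE M21 transcripts of GRCm38, with a value for 80.2% of genes tested). Libraries with the same replicate number did not deviate together (correlation −0.126). This cannot tell whether they came from the same animal. Genes were named by a rule. It took the 12 largest changes per direction among called genes with at least 5 CPM and no overlap, every Hox gene, and from each list up to 5 members of highest level and 3 of smallest adjusted p. A few genes that met the rule are not reported here. The 46 lists and the members were chosen with earlier results of these data known. Coordinates are those of GRCm38, and counting used no genome build.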

Additional observations from a re-analysis of the deposited data

Results flagged for a closer look

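The difference between TG and DRG differed between mouse and mole (edgeR interaction, adjusted p under 0.05) in 2585 genes toward the TG label and in 1195 toward the DRG label in the mouse, and in 33 of 35 genes among those with the largest changes and the leading genes of lists with at least 3 calls. Values are log2, mouse minus mole.

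Toward the TG label in the mouse, the Hox genes gave interactions of 11.05 for Hoxa5, 11.21 for Hoxa7, 13.88 for Hoxa9, 7.74 for Hoxa10, 6.09 for Hoxb2, 7.51 for Hoxb3, 11.14 for Hoxb6, 8.54 for Hoxb8, 8.75 for Hoxb9 and 13.22 for Hoxc6. For Hoxb5 and Hoxb7, with 0 and 2 counts over the DRG label, the adjusted p of the interaction was 4.02e-05 and 4.02e-05. Muscle genes gave 3.17 for Myh4 and 2.21 for Acta1. Neuronal genes gave 3.15 for Th, 4.61 for Trpv1, 6.19 for Osmr, 2.07 for Prkcq and 3.36 for Chrna3.

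Toward the DRG label in the mouse, genes of central glia gave −8.53 for Gfap, −7.06 for Mog, −7.81 for Olig1, −7.53 for Klk6, −7.80 for Ermn, −8.64 for Hapln2, −6.78 for Mobp and −3.55 for Bcas1. Myelin genes gave −6.80 for Mag and −3.99 for Prx. The others were −6.16 for Nrgn, −4.55 for Plk5, −3.30 for Tmem178 and −1.93 for Cidea. With 2 to 3 libraries per group, no group was large enough for a check of single libraries that stand apart.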

How the results depend on the processing

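The main test called 240 genes toward the TG label and 258 toward the DRG label. With no filter on low counts it called 401 and 445, with DESeq2 766 and 1036 (832 genes had no adjusted p), and with GC offsets 400 toward the TG label. RLE factors, filterByExpr, at least 10 counts in every library, limma-voom and the replicate block stayed within 1.5 times. Leaving out 1 library gave 8 to 2054 calls toward the TG label and 3 to 2757 toward the DRG label, lowest without TG 1 and highest without DRG 1. The 498 main calls included 11 of the calls without TG 1, 27 without TG 2 and 497 without either DRG library.

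With the replicate block the test called 241 and 315, and 300 and 307 with GC offsets and the replicate block. Libraries with the same number did not deviate together (correlation −0.126). This cannot tell whether they came from the same animal, so whether the block stands for a pairing is not known. Crossed pairing of the replicate block, chosen after seeing the data, called 978 and 1344. The interaction called 3780 genes, 2938 with the replicate block, and 897 to 6034 with 1 library left out, lowest without mouse DRG 2 and highest without mole DRG 2. No gene named as passing changed direction in the settings run. In the Hox, myelin, astrocyte, nociceptor, itch, fast and general skeletal muscle lists, where edgeR called 0 in one direction, DESeq2 called 0 as well, except 1 peripheral myelin gene toward the TG label, which limma-voom also called, and 1 itch gene toward the DRG label. Of 93 genes that met the rule for named genes and passed, 74 lost the call without TG 1 and 60 without TG 2, and 10 were not tested in either setting, having 10 counts in too few libraries. With 2 libraries per label, a gene that did not pass may still differ.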

Other observations

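Further called genes outside the lists were picked after their values were seen, and are given as values. Of the called genes, 63 toward the TG label and 37 toward the DRG label were members of any list. Toward the TG label stood Acpp, the acid phosphatase that stains nonpeptidergic nociceptors (603 and 669 CPM in TG 1 and TG 2 and 212 and 188 CPM in DRG 1 and DRG 2; log2 fold change 1.67 ± 0.13, edgeR adjusted p 0.00966). Grik1, a kainate receptor subunit of small sensory neurons, stood at 403 and 417 CPM in TG 1 and TG 2 and 156 and 144 CPM in DRG 1 and DRG 2 (1.45 ± 0.12, 0.00994), and Synpr, a synaptic vesicle protein, at 292 and 308 CPM in TG 1 and TG 2 and 129.9 and 126 CPM in DRG 1 and DRG 2 (1.23 ± 0.12, 0.0137). Mrgpra2b, a receptor of the Mrgpr family, stood at 14.4 and 15.3 CPM in TG 1 and TG 2 and 3.28 and 3.78 CPM in DRG 1 and DRG 2 (2.07 ± 0.22, 0.0162). Each had both TG values above both DRG values, as did 24.3% of all genes tested, and was picked with these values seen.

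Toward the DRG label stood Ppp1r1b, the phosphatase inhibitor DARPP-32 of striatal neurons (2.22 and 2.51 CPM in TG 1 and TG 2 and 11.9 and 13.2 CPM in DRG 1 and DRG 2; −2.41 ± 0.24, adjusted p 0.0141). Trf, transferrin, which oligodendrocytes make, stood at 29.8 and 34.03 CPM in TG 1 and TG 2 and 106 and 119.5 CPM in DRG 1 and DRG 2 (−1.82 ± 0.15, 0.0099), and Pllp, a myelin protein, at 30.4 and 28.5 CPM in TG 1 and TG 2 and 88.3 and 138 CPM in DRG 1 and DRG 2 (−1.94 ± 0.23, 0.0198). In these, picked likewise, the labels did not overlap either, as held in this direction for 23.8% of all genes tested.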
